A study of Mus musculus with 9 samples.

Results

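The 10 genes followed here write, copy, erase or protect DNA methylation in growing mouse oocytes, and they were taken by gene name from the 28052 genes of the UMI count matrix. They are Dnmt1, Dnmt3a, Dnmt3b, Dnmt3l, Uhrf1, Tet1, Tet2, Tet3, Dppa3 and Zfp57, and all 10 were found and passed the filter on low counts, which left 10993 genes for testing. The samples were 9 pools of 30 oocytes, with 3 pools each from XX, XO and XY females. In each pool 20 of the oocytes measured 55–60 μm across and the other 10 measured 50–55 μm. All females were 18 dpp and labelled C57BL/6. XY females and their XX littermates were born to B6 mothers and B6.YTIR fathers. XO females were born to B6 mothers and Paf carrier fathers, which came from C3H/HeSnJ and had been backcrossed to B6. XO oocytes thus differ from XX and from XY oocytes in both the sex chromosomes and the cross, and the effects of each cannot be told apart. Pools are named by genotype and replicate number, such as XO1. Smart-seq3 counts the 5′ end of each transcript by its unique molecular identifier (UMI), so that PCR copies count once and no division by transcript length is needed to compare genes.

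The oocyte genome is nearly stripped of DNA methylation at birth, and methylation is laid down anew while the oocyte grows. DNMT3A is the enzyme of this de novo step and DNMT3L, which has no activity of its own, is its essential cofactor, whereas DNMT1 copies existing methylation onto new strands after UHRF1 has recognized them. TET enzymes oxidize methylated cytosine, and DPPA3 (also called STELLA) and ZFP57 are maternal proteins known for protecting methylation, including that of imprinted genes, in the early embryo.

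Each pool held 2130145 to 3157338 UMIs on genes, and ERCC spike-in RNAs made up 0.204 to 0.862% of UMIs. Levels are given as normalized CPM, that is UMIs scaled to the gene UMIs of the pool (CPM) and divided by a spike-in factor of that pool. This factor compares the spike-in RNAs with one another and does not measure their amount against the genes. It was 1.247 in XX3 and 1.167 in XX2, where spike-ins made up 0.204 and 0.617% of UMIs. It was 0.7029 to 0.8465 in XO and 1.125 to 1.247 in XX pools. Normalized CPM and fits called spike-in scaled are thus not levels per spike-in UMI. UMIs of 4 Y-linked genes (Ddx3y, Eif2s3y, Kdm5d and Uty) summed to 873 to 1000 in XY pools and to 1 to 3 in all other pools, as labelled. Of 9 oocyte markers, 8 exceeded 1 normalized CPM on average, and only Sohlh1 was near 0. XO1 stood apart, with 4919 normalized CPM of Zp2, which encodes a zona pellucida protein, against 10049 in XY1 and 14837 to 17150 in the other pools, and with the lowest sum of the oocyte markers, 15112 against 16329 to 26231 in the other pools. Zp1, Zp3 and Figla were also lowest in XO1, but Oosp1 was highest there (9137 against 2225 to 5572 normalized CPM). XO2 and XO3 stood apart on the high side for other markers. They had 759 and 2166 normalized CPM of Zp1 against 14.0 to 129 elsewhere, and 522 and 1138 of Nobox against 51.6 to 185. Gdf9 was 869 and 2432 in them, against 234 to 350 elsewhere, with 339 in XO1. Their Zp2 and Oosp1 lay within the range of the other pools. The granulosa cell markers summed to 48.0–66.7 in XX, 55.9–67.2 in XO and 56.0–92.1 normalized CPM in XY pools. Of these, Nr5a2, Cyp19a1 and Kitl had the highest means, at 30.9, 19.0 and 12.1. Fst and Inha had 1 UMI each over the 9 pools, and Amh and Foxl2 were not among the genes of the count matrix. Theca and stroma markers, 4 of 6 in that matrix, summed to at most 3.92. Blood and immune markers, 1 of 5 in it, summed to at most 1.69. The part of these differences in the results was not tested, and results that rest on XO1 are given with and without it. In such pools, fewer transcripts per oocyte and fewer oocytes with a transcript cannot be told apart.

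Transcripts of the 10 genes covered a wide range of levels. Dppa3 was the most abundant, at 2804 ± 687 normalized CPM in XX oocytes (mean ± SD, n = 3 pools), followed by Dnmt1, at 660 ± 276. Both belonged to the most abundant genes of these oocytes, above 99.7 and 98.8% of the genes tested. Zfp57 followed at 137 ± 32.0 and Tet3 at 99.7 ± 15.9, and their pools overlapped in all 3 genotypes. Uhrf1, at 69.3 ± 14.2, and Dnmt3a, at 27.7 ± 4.38, came next in XX oocytes. Tet2, Dnmt3l and Tet1 stood at 12.5 ± 1.89, 10.3 ± 5.32 and 5.84 ± 1.89, and the pools of Tet2 overlapped with those of Dnmt3l and the latter with those of Tet1. Dnmt3b was the lowest, at 2.80 ± 0.0539, with 7 to 17 UMIs in a pool. In XX oocytes, no other neighbours in this order overlapped. The pools of XO oocytes spread so widely that only Dnmt3b was set apart from its neighbour, and in XY oocytes only Dnmt1 from Zfp57 and Dnmt3a from Tet1. The plot of levels by pool shows that most genes shared 1 pattern across the 9 pools.

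**Figure D1:**
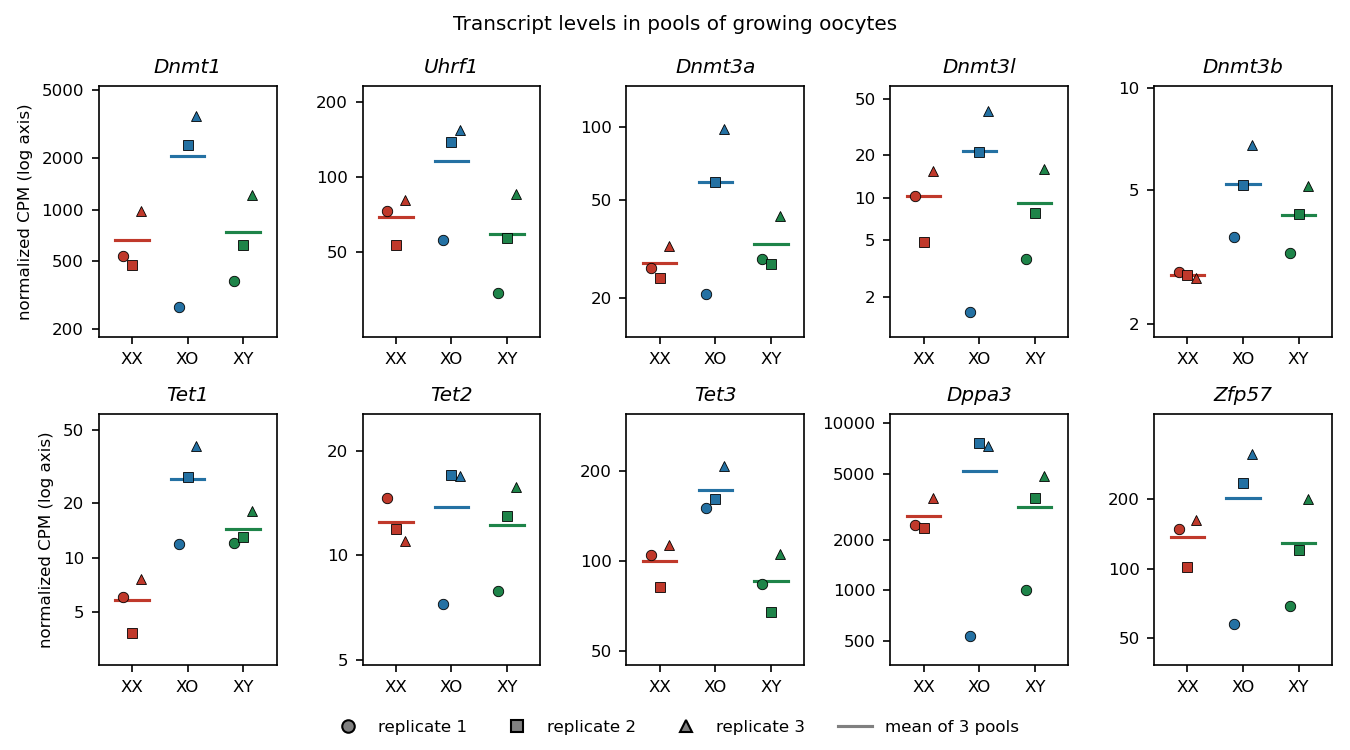
Normalized CPM (log axis) of each gene in the 9 pools, by genotype, with marker shape for the replicate number and a bar for the mean of 3 pools. XO1 is the lowest of the 3 XO pools for all 10 genes, and for Tet1 the 3 XX pools lie between 3.85 and 7.62, below all XO and XY pools.

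Replicate 3 was the highest pool in all 3 genotypes for 7 of the 10 genes, against 25.7% of the genes tested, and replicate 1 was the lowest in both XO and XY oocytes for 8 of the 10, against 35.1%. On the CPM scale without the spike-in factor, the numbers were 7 genes against 20.3% and 9 genes against 39.4%. Neither the labels nor the methods say what a replicate number marks. Between the highest and the lowest pool, levels differed 26.5-fold for Dnmt3l, 14.2-fold for Dppa3, 13.1-fold for Dnmt1, 10.7-fold for Tet1, 5.43-fold for Zfp57 and 2.35-fold for Tet2, the least of the 10 on this scale. On the CPM scale without the spike-in factor, Tet2 differed 2.71-fold, and Dnmt3b (1.77-fold) and Tet3 (1.87-fold) differed less.

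Transcription starts of these genes were looked up in RefSeq (GRCm38.p6), where 9 of the 10 genes had 18 annotated starts. Dppa3 had none in that table. Oocytes are known to transcribe Dnmt1 from a start upstream of the one used in somatic cells, and Dnmt3l from a start within the neighbouring gene Aire, but UMIs were deposited per gene and do not separate starts. The 250 bases before a start are printed for 3 genes whose levels varied widely among pools, Dnmt1, Dnmt3l and Zfp57, and for Tet2, which varied least in normalized CPM, 5′ to 3′ on the strand of the gene. Capitals mark CpG, the dinucleotide that these proteins act on. The windows lie before the distal Dnmt1 start (chr9:20959889-20960138, minus strand), the next Dnmt1 start (chr9:20952980-20953229, minus), the second annotated Dnmt3l start (chr10:78049592-78049841, plus), the first Zfp57 start (chr17:37000913-37001162, plus) and the Tet2 start (chr3:133544391-133544640, minus). No annotated exon overlaps any of the 5.
Dnmt1, distal start: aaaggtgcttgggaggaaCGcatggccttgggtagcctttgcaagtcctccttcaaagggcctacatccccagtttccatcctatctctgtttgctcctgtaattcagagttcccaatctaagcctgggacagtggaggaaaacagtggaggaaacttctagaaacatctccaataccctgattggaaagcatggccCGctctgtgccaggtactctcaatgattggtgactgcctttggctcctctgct
Dnmt1, next start: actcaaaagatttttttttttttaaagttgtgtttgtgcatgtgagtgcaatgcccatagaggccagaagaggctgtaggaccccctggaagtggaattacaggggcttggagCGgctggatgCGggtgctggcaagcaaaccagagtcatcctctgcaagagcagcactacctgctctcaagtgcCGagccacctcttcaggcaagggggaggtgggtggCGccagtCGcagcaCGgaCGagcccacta
Dnmt3l: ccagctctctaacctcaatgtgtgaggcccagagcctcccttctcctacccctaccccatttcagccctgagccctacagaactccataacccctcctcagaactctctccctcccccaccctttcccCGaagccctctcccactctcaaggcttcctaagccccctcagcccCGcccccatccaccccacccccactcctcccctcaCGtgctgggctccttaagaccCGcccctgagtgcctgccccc
Zfp57: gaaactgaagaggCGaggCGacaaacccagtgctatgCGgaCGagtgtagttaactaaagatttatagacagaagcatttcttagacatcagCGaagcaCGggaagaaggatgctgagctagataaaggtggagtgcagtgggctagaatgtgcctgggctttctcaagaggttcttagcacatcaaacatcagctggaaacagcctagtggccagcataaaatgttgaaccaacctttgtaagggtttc
Tet2: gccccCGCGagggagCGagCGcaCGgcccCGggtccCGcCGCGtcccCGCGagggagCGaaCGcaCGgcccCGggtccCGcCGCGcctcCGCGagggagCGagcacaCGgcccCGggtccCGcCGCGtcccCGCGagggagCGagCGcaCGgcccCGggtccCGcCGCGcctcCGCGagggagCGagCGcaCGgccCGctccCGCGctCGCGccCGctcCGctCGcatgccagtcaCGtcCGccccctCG
The distal Dnmt1 window holds 2 CpG and the Tet2 window 51, against a median of 6 over 32851 windows of the same length. The windows of the next Dnmt1 start, of Dnmt3l and of Zfp57 hold 7, 4 and 6. A further Dnmt1 start, 7265 bases downstream of the distal one, has 26 CpG in its window, more than 90.4% of all windows. The first of the 3 Dnmt3l starts (chr10, base 78042287) lies within Aire, a gene on the opposite strand at chr10:78030022-78043610, in none of its exons. Both strands were searched for the NOBOX element TAATTG and for the CCAAT box, which may share letters with it. TAATTG was in none of the 18 windows, against 7.17% of all windows, and CCAAT occurred 4 times in the distal Dnmt1 window, where 33.8% of all windows had at least 1. A match or its absence describes these letters alone.

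The comparisons between genotypes ask how a 2nd X chromosome, its absence and the Y chromosome relate to transcript levels. The UMI counts of all 9 pools were fitted together in edgeR (quasi-likelihood test, two-sided, spike-in factors), and a gene was called at an unadjusted p below 0.05. Between XX and XO oocytes, 3 of the 10 genes (Tet1, Tet3 and Dnmt3a) were called lower in XX and none higher, against 16.7 and 1.4% of the genes tested. Between XX and XY oocytes, 1 (Tet1) was lower in XX and none higher, against 4.39 and 1.41%. Between XY and XO oocytes, 1 (Tet3) was lower in XY and none higher, against 8.24 and 1.69%. Calls were thus few in number, and 1 call more or fewer moves a share of 10 genes by 10 percentage points. After Benjamini-Hochberg adjustment over all genes, none of the 10 passed in any of the 3 comparisons in edgeR, where 0, 0.0819 and 0.0364% of genes did in the same order. All XX pools lay below all XO pools for 3 of the 10 genes (13.6% of genes), all XX pools below all XY pools for 2 (11.7%), and all XY pools below all XO pools for 1 (6.34%).

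The other tools gave more adjusted calls. With DESeq2, the adjusted p was below 0.05 for Tet1 between XX and XO (1.62% of genes), for none of the 10 between XX and XY (0.728%; 1 at an unadjusted p) and for Tet3 between XY and XO oocytes (0.582%). With limma-voom and 1 surrogate variable as a covariate, it was so for 4 genes between XX and XO (25.5%), for Tet1 alone of the 10 between XX and XY (10.1%) and for 3 between XY and XO (12.4%). With limma on the deposited batch-regressed log2 values, it was so for 6, 1 and 4 of the 10, against 32.2, 6.56 and 30.8% of genes. That fit holds genotype alone and takes off no degrees of freedom for the earlier regression. Its p-values can thus be too small, here and wherever calls on these values are given. The direction depended on this choice. On the batch-regressed values, 5 of the 10 genes were called higher and 1 lower in XX than XO oocytes, and 7 higher and 1 lower in XY than XO oocytes. Of the 10993 genes tested, 3972 were called higher and 814 lower in XX than XO oocytes on these values. The median log2 fold change of all genes there was 0.28 between XX and XO and 0.32 between XY and XO oocytes.

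The scaling also set the balance of all genes. With spike-in factors, XX oocytes had 154 genes called higher and 1832 called lower than XO oocytes, and with TMM factors of the genes 649 and 662. The corresponding numbers were 155 and 483 against 284 and 304 between XX and XY, and 186 and 906 against 593 and 404 between XY and XO oocytes. The median log2 fold change of all genes was -0.46, -0.19 and -0.30 with spike-in factors and -0.03, -0.04 and -0.02 with gene factors. With UMIs per spike-in UMI, the scale that uses the amount of spike-ins, it was 0.42, 0.49 and -0.11. Whether XO oocytes hold more RNA was not tested. The median over the 10 genes, all of which were below 0 between XX and XO and between XY and XO, was -0.88, -0.07 and -0.87 with spike-in factors. Over all genes, 80.3 and 71.9% were below 0 in these 2 comparisons. With gene factors Tet2 was above 0 in both, at 0.33 and 0.16, and Dnmt3b was so between XY and XO oocytes (0.03). All 3 comparisons share pools, so their values are not independent.

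**Figure D2:**
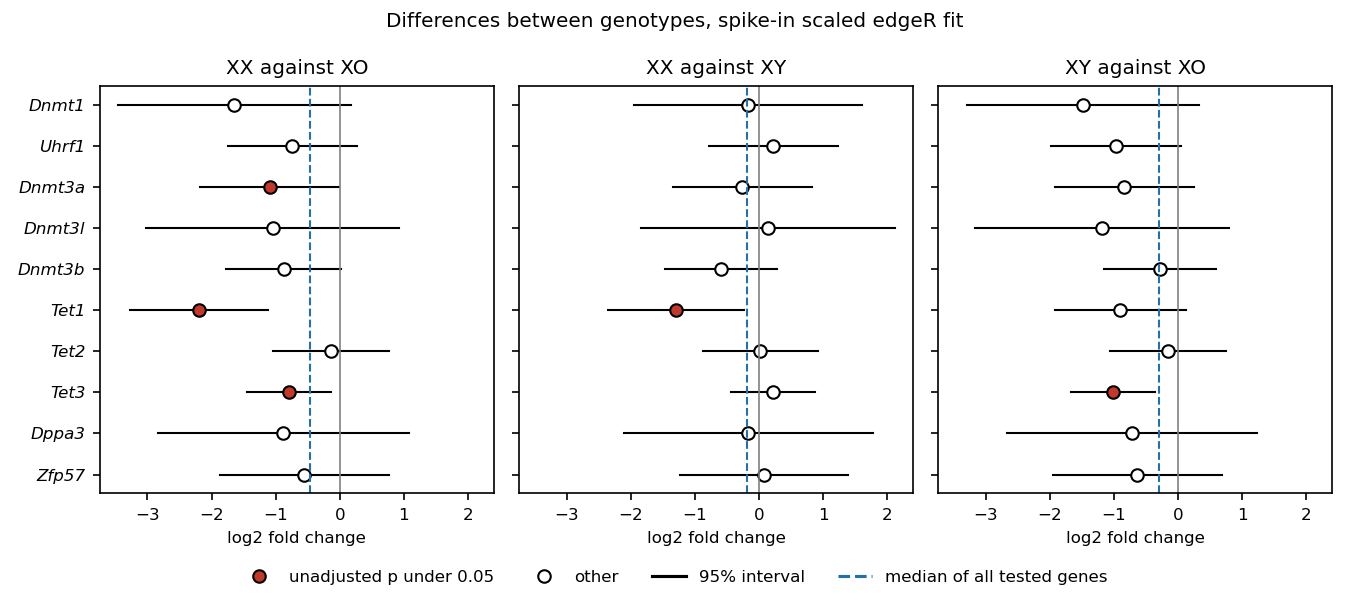
Log2 fold changes of the 10 genes with 95% intervals in the spike-in scaled edgeR fit, 1 panel per comparison, negative where the first genotype is lower. Filled points have an unadjusted p below 0.05, and the dashed line is the median of all 10993 tested genes. Tet1 lies farthest below the line in both comparisons with XX.

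Dnmt1, the maintenance methyltransferase (chr9:20907209-20959888, minus strand), had 533, 471 and 977 normalized CPM in XX1, XX2 and XX3. It had 269, 2395 and 3529 in XO1 to XO3 and 382, 621 and 1223 in XY1 to XY3. XO1 was the lowest and XO2 and XO3 were the highest of the 9 pools, so that the genotypes overlapped. The log2 fold change was -1.64 between XX and XO (95% interval -3.46 to 0.17, adjusted p = 0.303 in edgeR), -0.17 between XX and XY (-1.94 to 1.60) and -1.48 between XY and XO oocytes (-3.29 to 0.33, adjusted p = 0.536), and none was called. Without XO1, Dnmt1 was called lower in XX than XO oocytes, at -2.17 (adjusted p = 0.0108 in edgeR). Without XO3 the value was -1.01 and was not called, and on the batch-regressed values Dnmt1 was called in the opposite direction (0.54). With limma-voom and 1 surrogate variable, Dnmt1 was called lower in XX (-0.66) and in XY (-0.51) than in XO oocytes. After adjustment, 25.5 and 12.4% of all genes passed in that fit.

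Uhrf1, which brings DNMT1 to newly copied sites (chr17:56303321-56323486, plus), had 73.4, 53.6 and 81.0 normalized CPM in XX pools. It had 55.9, 138 and 154 in XO and 34.4, 57.3 and 85.7 in XY pools. The 3 genotypes overlapped, with XY1 lowest. Between XX and XO the log2 fold change was -0.74 (-1.75 to 0.26), between XX and XY 0.23 (-0.78 to 1.23) and between XY and XO -0.97 (-1.98 to 0.04), and none of them was called. Same-numbered XY and XO pools went together for replicates 1 and 3 but little for replicate 2, a pairing taken from these same data. Once that number entered the fit as a replicate block, Uhrf1 (-0.96) and Tet1 (-0.83) were called between XY and XO oocytes beside Tet3. That made 3 of the 10 genes lower in XY, against 14.1% of genes.

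Within a pool, where no scaling enters, Dnmt1 had 7.26, 8.79 and 12.1 UMIs per UMI of Uhrf1 in XX, 4.81, 17.4 and 22.9 in XO and 11.1, 10.8 and 14.3 in XY pools. The ratio spread more among XO pools than among genotypes. The log2 ratio averaged 3.19 ± 0.37 for XX, 3.63 ± 1.20 for XO and 3.58 ± 0.22 for XY pools (SD, n = 3), and an exact permutation test over the 3 genotypes gave p = 0.736.

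Dnmt3a, the de novo methyltransferase of oocytes (chr12:3806007-3914443, plus), had 26.4, 24.2 and 32.6 normalized CPM in XX pools. It had 20.7, 59.5 and 97.7 in XO and 28.8, 27.3 and 43.2 in XY pools. XO1 was the lowest and XO2 and XO3 were the highest pools. Dnmt3a was 2.13-fold lower in XX than XO oocytes (log2 fold change -1.09, 95% interval -2.18 to -0.00, adjusted p = 0.275 in edgeR), with its unadjusted p just inside the threshold. This call was lost without any single pool other than XO1 and with 5 of the 8 other ways of fitting, and without XO3 the log2 fold change was -0.53. Between XX and XY it was -0.26 (-1.34 to 0.82) and between XY and XO oocytes -0.84 (-1.92 to 0.25), neither of which was called.

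Dnmt3l, the cofactor of DNMT3A (chr10:78041947-78063622, plus), had 10.3, 4.90 and 15.5 normalized CPM in XX pools. It had 1.55, 21.2 and 41.2 in XO and 3.72, 7.81 and 15.998 in XY pools. XO1, with 3 UMIs, was the lowest and XO3, with 73 UMIs, the highest pool. None of its log2 fold changes was called, at -1.04 between XX and XO (-3.02 to 0.93), 0.14 between XX and XY (-1.84 to 2.12) and -1.18 between XY and XO oocytes (-3.17 to 0.80). These intervals are the widest of the 10 genes together with those of Dppa3. Without XO3, the first value was -0.14. On the batch-regressed values Dnmt3l was called higher in XX and in XY than in XO oocytes (1.44 and 1.10), and in a paired fit of XO and XY pools alone, chosen after seeing the data, it was called lower in XY (-1.03). Aire, on the opposite strand, had 102 UMIs over all pools, and the authors aligned reads by strand.

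Dnmt3b, the related methyltransferase that mouse oocytes do without (chr2:153649450-153687730, plus), had 2.85, 2.80 and 2.74 normalized CPM in XX pools. It had 3.62, 5.17 and 6.77 in XO and 3.25, 4.23 and 5.13 in XY pools. All XX pools lay below all other pools on this scale, although they held 8 or 9 UMIs each and XO1 and XY1 only 7. As CPM without the spike-in factor, XX pools had 3.21 to 3.42, XO1 had 3.04 and XY1 had 3.29, so that the genotypes overlapped. The log2 fold changes were -0.88 between XX and XO (-1.77 to 0.02, adjusted p = 0.281 in edgeR), -0.59 between XX and XY (-1.47 to 0.28) and -0.28 between XY and XO oocytes (-1.15 to 0.59), and none was called.

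Dnmt3l had 0.392, 0.203 and 0.477 UMIs per UMI of Dnmt3a in XX, 0.075, 0.357 and 0.422 in XO and 0.129, 0.286 and 0.371 in XY pools. The lowest ratios were those of XO1 and XY1. Dnmt3b had 0.0694 to 0.175 UMIs per UMI of Dnmt3a in the 9 pools, and neither ratio passed a test between genotypes (exact permutation test over the 3 genotypes, p = 0.764 for Dnmt3l and 0.621 for Dnmt3b). Of the UMIs of the 4 Dnmt genes together, Dnmt1 took 91.2 to 96.5% in all 9 pools.

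Tet1, which oxidizes methylated cytosine (chr10:62804570-62908996, minus), had 6.06, 3.85 and 7.62 normalized CPM in XX pools, from 17, 11 and 25 UMIs. It had 11.9, 27.9 and 41.2 in XO pools, from 23, 54 and 73 UMIs. It had 12.1, 13.02 and 18.1 in XY pools, from 26, 40 and 60 UMIs. All 3 XX pools lay below all 6 XO and XY pools, also as CPM without the spike-in factor, where XX3 had 9.50 and XO1 had 9.97. Tet1 was 4.57-fold lower in XX than XO oocytes (log2 fold change -2.19, -3.27 to -1.12, adjusted p = 0.203 in edgeR) and 2.45-fold lower in XX than XY oocytes (-1.30, -2.36 to -0.23, adjusted p = 0.713). Between XY and XO oocytes it was -0.90 (-1.92 to 0.12) and was not called.

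Tet1 was lower in XX than in XO oocytes under each alternative run, with log2 fold changes from -0.98 to -2.55, and was called in all but the fit to UMIs per spike-in UMI (-1.27). Against XY oocytes its log2 fold change lay between -0.55 and -1.54, and the call was lost at -0.55 with UMIs per spike-in UMI, at -1.32 without XX1, at -1.07 without XX2 and at -1.09 without XY3. The plot of values under 8 ways of scaling or fitting shows Tet1 as the 1 gene below 0 in both comparisons with XX in each of them. Dnmt3b was below 0 in each of them against XY oocytes but not against XO oocytes.

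**Figure D3:**
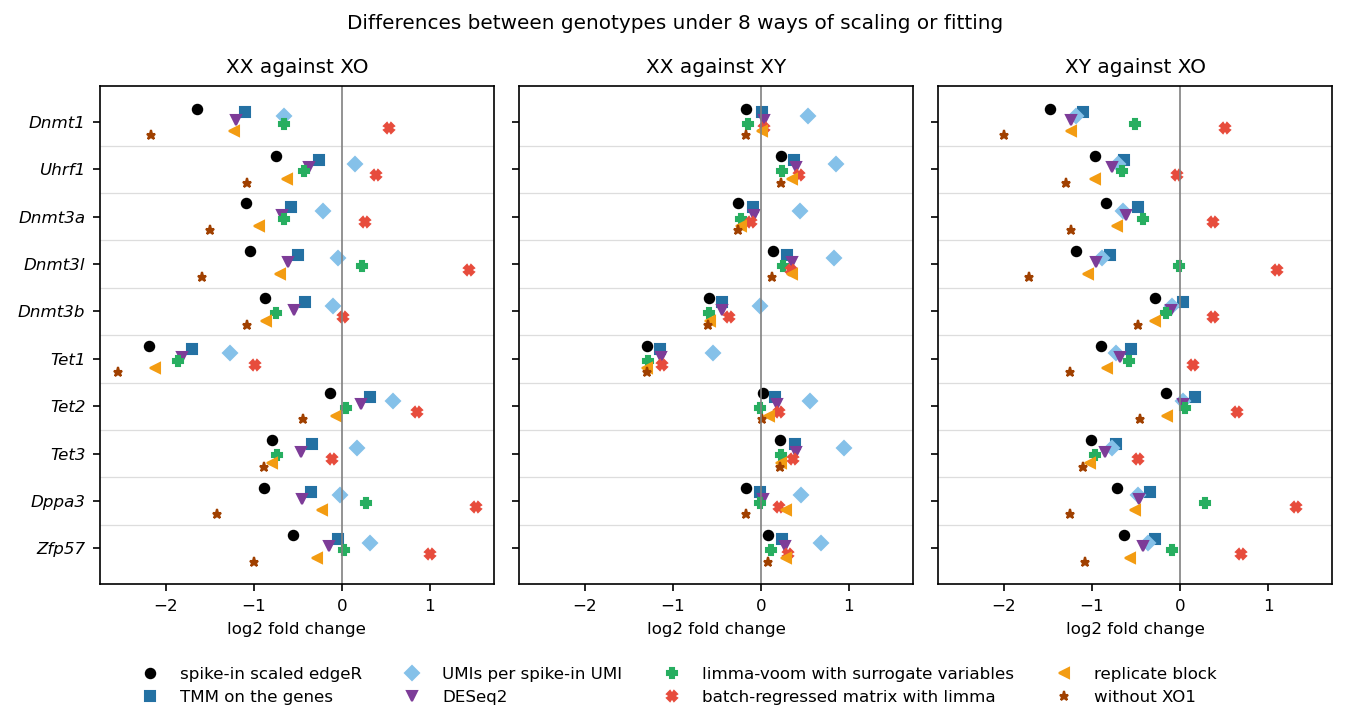
Log2 fold changes of the 10 genes under 8 ways of scaling or fitting, 1 panel per comparison, with a marker for each way. Between XX and XO, values with the batch-regressed matrix lie to the right of 0 for all genes but Tet1 and Tet3, with Dnmt3b at 0.013. In that comparison, values without XO1 lie farthest to the left.

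Tet2, a further enzyme of this family (chr3:133463679-133545139, minus), had 14.6, 11.9 and 11.0 normalized CPM in XX pools. It had 7.25, 17.1 and 16.9 in XO and 7.90, 13.02 and 15.7 in XY pools. XO1 and XY1 were the lowest and the other 7 pools lay between 11.0 and 17.1. Its log2 fold changes were the smallest of the 10 genes, at -0.14 between XX and XO (-1.04 to 0.77), 0.02 between XX and XY (-0.87 to 0.92) and -0.16 between XY and XO oocytes (-1.07 to 0.75). Gm42567, on the opposite strand, had 139 UMIs over all pools.

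Tet3, the family member known to act on the sperm-derived genome after fertilization (chr6:83362373-83459084, minus), had 104, 81.9 and 113 normalized CPM in XX pools. It had 150, 161 and 207 in XO and 83.7, 67.4 and 106 in XY pools. All 3 XO pools, XO1 included, lay above the other 6 on this scale. As CPM without the spike-in factor, XX3 (140.5) lay above XO1 (125.8) and XO2 (136.1). Tet3 was 1.73-fold lower in XX than XO oocytes (log2 fold change -0.79, -1.45 to -0.14, adjusted p = 0.227 in edgeR) and 2.02-fold lower in XY than XO oocytes (-1.01, -1.67 to -0.36, adjusted p = 0.485). Between XX and XY it was 0.22 (-0.43 to 0.87), which was not called. Between XX and XO oocytes, the call was lost with gene factors (-0.34), on the batch-regressed values (-0.11), with no filter, and without XX1, XX2 or XO3, and the direction turned with UMIs per spike-in UMI (0.17). Between XY and XO oocytes, the direction held in each alternative run and the call was lost with UMIs per spike-in UMI alone (-0.77).

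**Figure D4:**
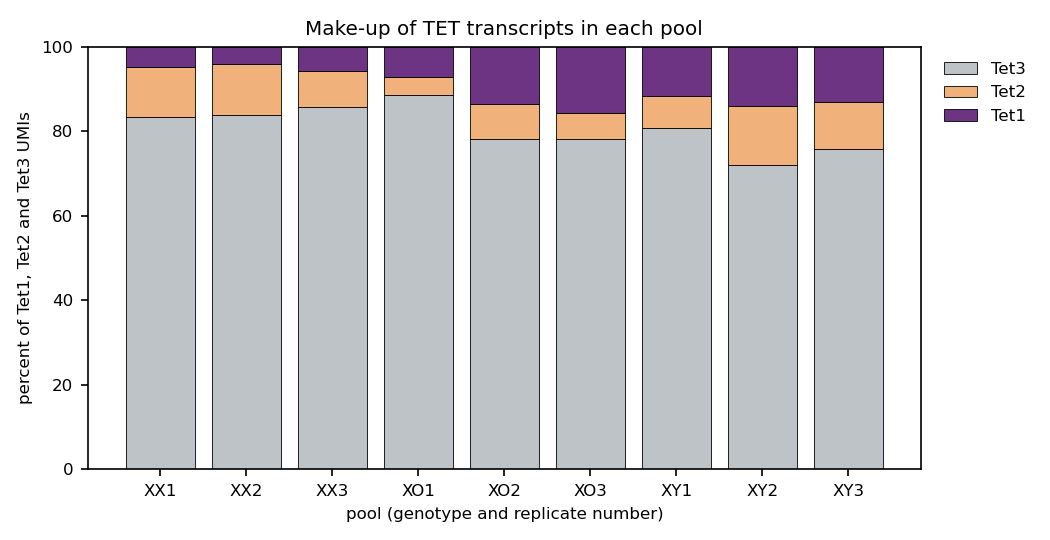
Percent of the UMIs of Tet1, Tet2 and Tet3 together that belong to each gene, in each of the 9 pools. Tet3 makes up 72.1 to 88.7%, and Tet1 is at most 5.80% in XX pools and at least 7.03% in the others.

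Of the UMIs of the 3 Tet genes, Tet1 took 4.84, 3.94 and 5.80% in XX pools, of 279 to 431 UMIs each. It took 7.03, 13.6 and 15.5% in XO and 11.7, 13.9 and 12.99% in XY pools. The XX pools lay below all others on this measure too, which uses no scaling between pools. The exact binomial 95% intervals (counting error only) reached up to 8.44% in XX3 and down to 4.51% in XO1. The lowest bound in an XY pool was 7.76% in XY1, so that the interval of XX3 overlapped with both. Overlap of intervals is not a test of a difference, and the pools were not tested against each other. Tet3 took 83.5 to 85.8% in XX, 78.1 to 88.7% in XO and 72.1 to 80.7% in XY pools. XX lay above XY in all pools, by 8.20 percentage points on average (exact permutation test, two-sided, p = 0.1, the smallest possible with 3 against 3 pools, adjusted p = 0.5 over 5 ratios).

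Dppa3, which shields maternal methylation in the zygote (chr6:122626410-122630272, plus), had 2460, 2357 and 3595 normalized CPM in XX pools. It had 537, 7623 and 7312 in XO and 1001, 3571 and 4855 in XY pools. XO1 was the lowest pool with 1037 UMIs, against 14746 in XO2, and XY1 was next, so that the genotypes overlapped. The log2 fold changes were -0.88 between XX and XO (-2.84 to 1.08, adjusted p = 0.589 in edgeR), -0.16 between XX and XY (-2.11 to 1.78) and -0.71 between XY and XO oocytes (-2.67 to 1.24), and none was called. On the batch-regressed values, Dppa3 was instead called higher in XX than XO oocytes, at a log2 fold change of 1.52 with limma, whereas without XO1 it was called lower, at -1.41 with edgeR. Dppa3 has related copies in the mouse genome, and how reads shared with them were counted is uncertain.

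Zfp57, a zinc finger protein that binds methylated imprint control regions (chr17:37001163-37010635, plus), had 148, 102 and 163 normalized CPM in XX pools. It had 57.5, 236 and 312 in XO and 69.3, 120 and 199 in XY pools. XO1 and XY1 were again the lowest pools and XO3 was the highest. None of its log2 fold changes was called, at -0.55 between XX and XO (-1.87 to 0.76), 0.08 between XX and XY (-1.23 to 1.40) and -0.64 between XY and XO oocytes (-1.95 to 0.68). Dppa3 had 33.5 to 44.4 UMIs per UMI of Uhrf1 in XX, 9.60, 55.2 and 47.4 in XO and 29.1, 62.3 and 56.6 in XY pools, and the genotypes were not told apart (exact permutation test over the 3 genotypes, p = 0.796).

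Leaving out XO1 moved all comparisons with XO oocytes. In that fit, 9 of the 10 genes were called lower in XX than XO oocytes, all but Tet2, against 34.2% of genes, and 8 were called lower in XY than XO oocytes, all but Tet2 and Dnmt3b, against 27.6% of genes. The log2 fold changes between XX and XO oocytes were -2.55 for Tet1, -2.17 for Dnmt1, -1.59 for Dnmt3l, -1.50 for Dnmt3a, -1.41 for Dppa3, -1.08 for Dnmt3b, -1.07 for Uhrf1, -0.99 for Zfp57, -0.88 for Tet3 and -0.45 for Tet2. Between XX and XY oocytes Tet1 stayed the 1 gene of the 10 called, at -1.30, against 8.52% of genes called lower. XO oocytes have only 2 pools in this fit. Leaving out XO3 instead brought the values nearer to 0 and left 1 of the 10 called in each comparison with XO, Tet1 against XX (-1.76) and Tet3 against XY (-0.86). Of 11371 genes tested without XO3, 1059 were called between XX and XO oocytes, 155 higher and 904 lower in XX. The median log2 fold change of all genes was then -0.40 between XX and XO and -0.22 between XY and XO oocytes. Between XX and XO oocytes, Dnmt3a was at -0.53, Dnmt3l at -0.14 and Zfp57 at -0.093 in that fit. Between XY and XO oocytes, Dnmt3a was at -0.27 and Dnmt3l at -0.29.

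The genes whose levels over the 9 pools were most like those of each gene were found by the Pearson coefficient of log2(normalized CPM + 1). It is a description over 9 pools that share depth and replicate pattern. Dppa3 was closest to Aurkc (0.999) and Setd4 (0.997), Dnmt1 to Gm15629 and Ddx24 (0.997 both) and Dnmt3a to Iars (0.999) and Ppp1r7 (0.994). Dnmt3l was closest to Bcar3 (0.991) and Adar (0.990), Zfp57 to Actg1 (0.994) and Yap1 (0.993) and Uhrf1 to Trim11 (0.993) and Pde6b (0.987). Tet1 was closest to Ttll1 (0.988) and Gm31121 (0.985), Tet2 to Anapc4 (0.989) and Llph-ps2 (0.983), Tet3 to Parp12 (0.984) and Ccdc186 (0.980) and Dnmt3b to Lrrc4 (0.978) and Ttll1 (0.972). Ttll1 was the 1 gene named for both Tet1 and Dnmt3b. Such values are common here, since 2026 of the genes tested had a coefficient above 0.9 with Dnmt1, but 126 with Tet3 and 279 with Tet1. Among the 10 genes, Zfp57 and Dnmt3l were the most alike (0.988) and Dppa3 and Tet3 the least (0.267).

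The 5 lists of partners, 41 genes in all with 33 tested, place the 10 genes in their pathway. Between XX and XO oocytes, 1 of the 33 was called higher in XX and 5 lower, between XX and XY none, and between XY and XO 4 lower in XY. Of all genes, 1.4% were higher and 16.7% lower in the first comparison and 8.24% lower in the last, so that the lists were near these shares. With TMM factors of the genes, 4 were higher and none lower, 1 was higher, and 2 were lower, in the same order. Of all 10993 genes tested with these factors, 649 were higher and 662 lower in the first comparison. In the second, 284 were higher and 304 lower, and the numbers for the last are given above. The lists were chosen with earlier results of these data known, and after adjustment over all genes in edgeR no gene named from them passed.

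Of the chromatin proteins that direct where oocytes are methylated, 3 of 6 tested were lower in XX than XO oocytes and none higher, where 16.7% of all genes were lower. The median log2 fold change was -0.77, against -0.46 over all genes. Setd2, the H3K36 methyltransferase required for methylation of transcribed regions in oocytes, had 39.6 to 52.7 normalized CPM in XX, 64.2 to 103 in XO and 38.7 to 58.9 in XY pools. It was called between XX and XO (-0.85) and between XY and XO oocytes (-0.74). Nsd1, an H3K36 methyltransferase (-0.99), and Kdm2b, which binds unmethylated CpG (-0.70), were called between XX and XO oocytes. Kdm1b, the H3K4 demethylase needed for maternal imprints and the most abundant of the list, had 140 to 152 normalized CPM in XX, 186 to 266 in XO and 101 to 142 in XY pools, and was called between XY and XO oocytes (-0.84). With gene factors none of these 6 was called in any comparison.

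Among maintenance partners and readers of methylated CpG, 2 of 7 tested were lower in XY than XO oocytes and none higher, where 8.24% of all genes were lower. Mbd2, a methyl-CpG binding protein, was lower in XX (-1.52) and in XY (-1.72) than in XO oocytes, where its 13.5, 34.1 and 62.1 normalized CPM included the low XO1. Cdca7, a partner of the remodeler HELLS, was lower in XY than XO oocytes (-1.35). Usp7, a deubiquitinase that binds DNMT1 and UHRF1, was the most abundant of this list at 195 to 362 normalized CPM and was not called, with a log2 fold change of 0.15 between XX and XO oocytes.

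In the spike-in scaled edgeR fit without the replicate block, no gene of 2 lists was called in any comparison. These lists are the imprint protection partners (6 tested) and demethylation and base excision (7 tested). With that block, Ung, a uracil DNA glycosylase of the second list, was called lower in XY than XO oocytes (-1.38), as was Shmt2 of the methyl donor list (-1.79), and this pair was chosen for its values. The most abundant were Rif1, with a mean of 257 normalized CPM, and Ogt, the X-linked O-GlcNAc transferase that binds TET proteins, with 236. With the block, Ogt was called higher in XX than XY oocytes (0.81), and Ung was also called lower in XX than XO oocytes (-1.21). With gene factors, 2 of the second list were called higher in XX than XO oocytes. Tdg, which excises oxidized methylcytosine, did not pass the filter, at a mean of 0.283 normalized CPM. Mat2b, the regulatory subunit of methionine adenosyltransferase, was the most abundant of 7 tested genes of methyl donor supply, at a mean of 575 normalized CPM, and was called in none.

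**Figure D5:**
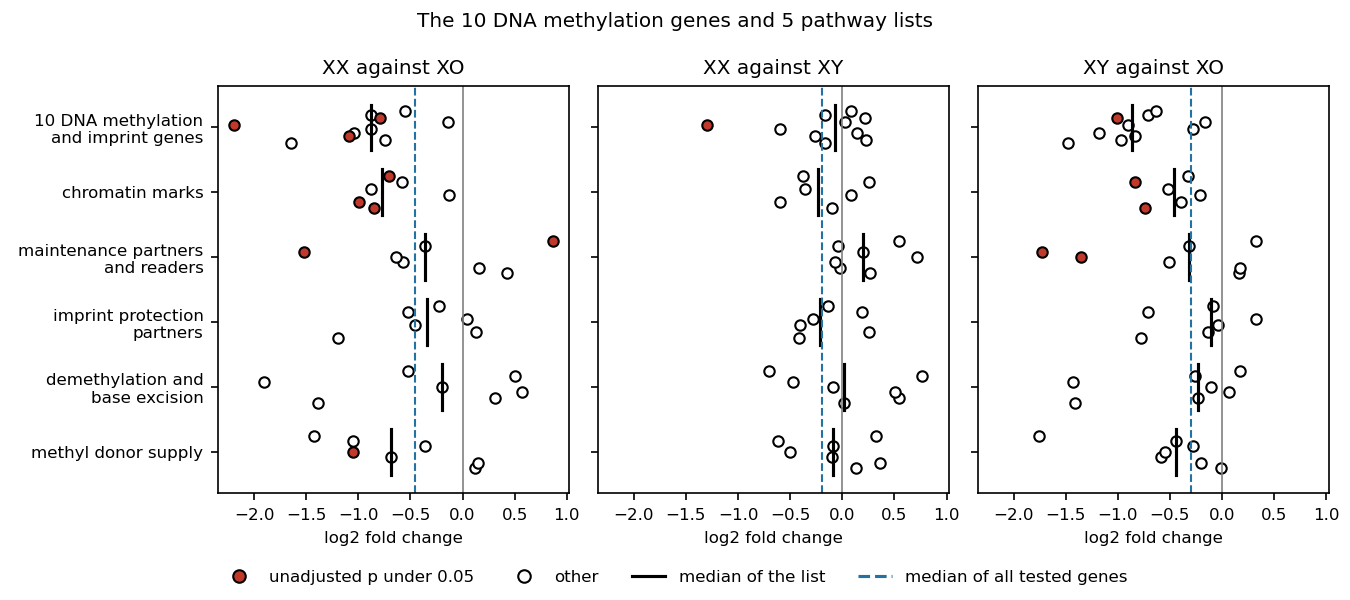
Log2 fold changes in the spike-in scaled edgeR fit of the 10 DNA methylation and imprint genes and of the tested genes of 5 lists of partners, with filled points at an unadjusted p below 0.05. Black bars are list medians and the dashed line is the median of all tested genes, at -0.46, -0.19 and -0.30.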

How the data were processed

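RNA of 9 pools of oocytes was analysed, 3 per genotype, as the labels group them. The XO column without a number was taken as XO1, by the description of that sample. The authors aligned reads by strand to GRCm38 with HISAT2 and deposited counts of 5′ UMIs per gene for 28052 genes and the ERCC spike-ins. The second deposited matrix holds a signal called normalized CPM, which was checked to be the counts times 1 constant per pool, as given by the spike-in factors. The third deposited file gives expression on a log2 scale after batch correction by the authors.

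Counts were tested with edgeR 4.0.16 (quasi-likelihood, filterByExpr with genotype, ERCC TMM factors, 1 mean per genotype), run in R 4.3.3 with limma 3.58.1, DESeq2 1.42.0 and sva 3.50.0. The transformation used by the authors before limma was replaced by voom. Ratios within a pool, with 0.5 added to counts on the log2 scale, were compared by exact permutation tests in scipy 1.17.1. The tests were tried on simulated data. Same-numbered XY and XO pools correlated in their deviations from genotype means at 0.83, 0.278 and 0.773. XO2 correlated more with XY3 (0.721) than with XY2, and the other pairs of unlike number lay between -0.824 and 0.158. These data thus do not settle the pairing for replicate 2. The numbers were taken to pair the pools from the data alone. The labels call the pools biological triplicates. Intervals on shares cover counting error only.

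The threshold on the unadjusted p follows the methods of the study. All 10 genes are named. Of each list of partners, the most abundant gene and up to 3 called genes of lowest p are named, and Tdg was added after its values were seen. Some genes of these lists are not reported here. The genes and lists were chosen with earlier results of these data known. Alternatives were other scalings, filters and tools, the replicate block, and leaving out each pool.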

Additional observations from a re-analysis of the deposited data

How the results depend on the processing

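The results of the 10 genes kept their direction and their side of the threshold in 406 of 518 alternatives over 30 results, became called in 30, lost the call in 24 and turned direction in 58. With spike-in factors and all pools, 1986 genes were called for XX against XO, 638 for XX against XY and 1092 for XY against XO, and 3, 1 and 1 of the 10 were among them. With UMIs per spike-in UMI, 343 genes and 0 of the 10 were called for XX against XO, 284 genes and 0 of the 10 were called for XX against XY and 136 genes and 0 of the 10 were called for XY against XO. Turned log2 fold changes there were 0.15 for Uhrf1, 0.59 for Tet2, 0.17 for Tet3, 0.32 for Zfp57 (XX against XO), 0.53 for Dnmt1, 0.44 for Dnmt3a, 0.45 for Dppa3 (XX against XY), 0.034 for Tet2 (XY against XO). With limma-voom and a surrogate variable, 4209 genes and 5 of the 10 were called for XX against XO, 2585 genes and 1 of the 10 were called for XX against XY and 3094 genes and 4 of the 10 were called for XY against XO. Turned log2 fold changes there were 0.23 for Dnmt3l, 0.045 for Tet2, 0.27 for Dppa3, 0.026 for Zfp57 (XX against XO), -0.015 for Tet2 (XX against XY), 0.060 for Tet2, 0.29 for Dppa3 (XY against XO). On the batch-regressed values, 4786 genes and 6 of the 10 were called for XX against XO, 2465 genes and 2 of the 10 were called for XX against XY and 4725 genes and 8 of the 10 were called for XY against XO. Turned log2 fold changes there were 0.54 for Dnmt1, 0.26 for Dnmt3a, 0.013 for Dnmt3b, 1.44 for Dnmt3l, 0.39 for Uhrf1, 0.85 for Tet2, 1.52 for Dppa3, 1.00 for Zfp57 (XX against XO), 0.034 for Dnmt1, 0.20 for Dppa3 (XX against XY), 0.51 for Dnmt1, 0.37 for Dnmt3a, 0.37 for Dnmt3b, 1.10 for Dnmt3l, 0.15 for Tet1, 0.64 for Tet2, 1.32 for Dppa3, 0.69 for Zfp57 (XY against XO). With TMM factors of the genes, 1311 genes and 1 of the 10 were called for XX against XO. Turned log2 fold changes there were 0.33 for Tet2 (XX against XO), 0.0069 for Dnmt1 (XX against XY), 0.029 for Dnmt3b, 0.16 for Tet2 (XY against XO). With DESeq2, turned log2 fold changes were 0.22 for Tet2 (XX against XO), 0.039 for Dnmt1, 0.021 for Dppa3 (XX against XY), 0.036 for Tet2 (XY against XO). With the replicate block, 1007 genes and 1 of the 10 were called for XX against XY and 1827 genes and 3 of the 10 were called for XY against XO. Turned log2 fold changes there were 0.013 for Dnmt1, 0.29 for Dppa3 (XX against XY). With no filter, 28051 genes were tested, against 10993 in the fits above. This gave 3953 genes and 4 of the 10 for XX against XO and 1214 genes and 1 of the 10 for XX against XY. Between XY and XO it gave 2735 genes and 4 of the 10. With only the 6 pools compared, 1051 of 10389 genes and 1 of the 10 were called for XX against XY. For XY against XO, 538 of 10265 genes and 1 of the 10 were called there. The replicate block in XO and XY pools only was chosen after seeing the data. It gave 1956 of 10265 genes and 4 of the 10 for XY against XO. Leaving out 1 pool left 11371 to 11623 genes to test. Leaving out each pool in turn gave 1008 to 4279 genes and 1 to 9 of the 10 for XX against XO, 384 to 1283 genes and 0 to 1 of the 10 for XX against XY and 425 to 3720 genes and 1 to 8 of the 10 for XY against XO. Direction turned for some pool left out, over ranges of -0.45 to 0.050 for Tet2 (XX against XO), -0.56 to 0.40 for Dnmt1 (XX against XY), -0.29 to 0.81 for Dnmt3l (XX against XY), -0.045 to 0.59 for Uhrf1 (XX against XY), -0.20 to 0.24 for Tet2 (XX against XY), -0.59 to 0.29 for Dppa3 (XX against XY), -0.22 to 0.54 for Zfp57 (XX against XY), -0.46 to 0.065 for Tet2 (XY against XO), -0.20 to 0.95 for Dnmt3l to Dnmt3a within a pool, XX against XO, -0.67 to 0.48 for Dnmt3l to Dnmt3a within a pool, XY against XO, -0.28 to 0.41 for Dnmt3b to Dnmt3a within a pool, XX against XO, -1.12 to 0.0059 for Dnmt1 to Uhrf1 within a pool, XX against XO, -0.74 to 0.39 for Dnmt1 to Uhrf1 within a pool, XY against XO, -0.35 to 0.92 for Dppa3 to Uhrf1 within a pool, XX against XO, -0.13 to 1.13 for Dppa3 to Uhrf1 within a pool, XY against XO. Both the highest numbers with XO pools came without XO1. Why these settings differ was not tested.

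Same-numbered XX and XO pools correlated at 0.468, -0.447 and 0.679 in their deviations from genotype means. XX and XY pools did so at 0.435, -0.0595 and 0.726. XX3 correlated with XO2 at 0.641 too. The numbers thus did not pair XX pools with the others throughout. Between XX and XO oocytes the replicate block gave 2527 genes and 3 of the 10. No paired fit made an adjusted call among the 10 in edgeR with all 9 pools. With 3 pools a genotype, Dnmt3b at 7 to 17 UMIs and Dnmt3l at 3 to 73 UMIs in a pool, wide intervals remain, and a difference inside them was not detectable at this depth. UMIs per spike-in UMI rest on a spike-in share of 0.204 to 0.862%. The median of all genes moved to 0.42, 0.49 and -0.11 on that scale and to 0.28, -0.01 and 0.32 on the batch-regressed values, in the order of comparisons above.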
